A study of Mus musculus with 12 samples.

Results

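The receptors described here are those through which neurotrophins and the ligands of the GDNF family act on sensory neurons: Ntrk2, Ntrk3, Ngfr, Ret, Gfra1, Gfra2 and Gfra3. They were chosen by gene name, 7 of the 24033 named genes in the deposited gene count table, and all 7 were found. Earlier results of these data were known when they and the gene lists below were chosen. Shares over all genes therefore stand beside their counts as a description only. All 7 passed the filter on low counts, as did 15748 genes in all.

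Ribosome-bound and total RNA of mouse dorsal root ganglia (DRG) were compared 3 days after a crush of 1 sciatic nerve. All mice were Adv-Cre//Ribotag, in which Cre driven by the Advillin gene, active mainly in peripheral sensory neurons, puts an HA tag on the ribosomal protein Rpl22. The 4 groups held 3 libraries each from dissociated L4 to L6 ganglia: RNA from the HA immunoprecipitate (IP), and input RNA from before the IP, each from naive and from injured ganglia. Every group, the naive ones included, carried the Cre and the tag. Injured and naive ganglia were taken from each animal, so that naive ganglia may be those of the uncrushed side. The sources used here give neither age nor sex of the mice, and the design text speaks of 4 mice while 3 libraries per group were analysed.

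Neurotrophins signal through Trk receptor tyrosine kinases, of which Ntrk2 encodes TrkB, the receptor of BDNF, and Ntrk3 encodes TrkC, the receptor of the neurotrophin made by Ntf3. Ngfr encodes the low-affinity receptor that all neurotrophins share. The GDNF family uses a split receptor: Ret is the kinase that signals, while Gfra1, Gfra2 and Gfra3 encode co-receptors anchored in the membrane by a lipid, which bind GDNF, neurturin and artemin respectively. In DRG these receptors mark different neurons, with Ntrk2 in low-threshold mechanoreceptors, Ntrk3 in proprioceptors and some mechanoreceptors, Ret and Gfra2 largely in nonpeptidergic nociceptors and some low-threshold mechanoreceptors, and Gfra3 in peptidergic nociceptors.

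Gene counts summed to 33508842 to 36338423 per library in naive IP, 41076255 to 41990355 in injured IP, 29436945 to 33015740 in naive input and 29477848 to 31417170 in injured input. Levels are given as CPM, each count relative to the composition-scaled size of its library. The 10 sensory neuron markers summed to 18053 to 18890 CPM in IP libraries and to 14058 to 16521 CPM in input libraries, and none of them was at 0 throughout a group. The 7 satellite glia markers summed to 172.1 to 577 CPM in IP and 3094 to 3525 CPM in input, and the 7 myelinating Schwann cell markers to 722.1 to 1132 CPM in IP and 3783 to 5086 CPM in input. The summed level of the 8 macrophage markers was higher after injury, going from 13.2 to 25.2 CPM in naive IP to 26.9 to 70.4 CPM in injured IP, and from 110.4 to 131.2 CPM in naive input to 258.5 to 306.8 CPM in injured input. Of the 8, 4 were called higher in IP and 5 in input, where 11.5% and 7.79% of all genes tested were called higher after injury. Without the input libraries numbered 3, 2 of the 8 were called in each fraction. The part of these markers in the injury results below was not tested. The input libraries numbered 3 stood apart from the others of their groups, with chi-square values over genes, divided by their degrees of freedom, of 22.3 and 39.6 against the other naive inputs and of 46.3 and 54.9 against the other injured inputs, where the remaining pairs stood at 8.77 and 10.5. Calls of the receptors in single contrasts that change without them, or without both naive libraries numbered 2, are given with both values.

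Several of these genes make receptors with different intracellular ends, and the following sequences show where the forms part. They are coding sequence of GENCODE M21 on GRCm38, 5′ to 3′ on the gene's strand; lower case marks the last 30 bases the forms share and capitals mark the first bases that belong to the named form alone. The Ntrk2 pair is shown because its ends behave differently between IP and input. In Ntrk2 the truncated form (476 codons) reads on in chr13:58932024-58932057 and stops there without the kinase domain, while the full-length form (821 codons) goes on in a later exon that starts with chr13:58985803-58985838, both on the plus strand.
Ntrk2 truncated: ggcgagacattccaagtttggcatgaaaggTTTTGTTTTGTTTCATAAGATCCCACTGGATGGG
Ntrk2 full-length: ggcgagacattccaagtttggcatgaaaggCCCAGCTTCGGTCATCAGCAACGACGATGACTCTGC

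The Ntrk3 and Ret pairs are shown for the same comparison of ends in the other kinases. The Ntrk3 forms part at chr7:78304391-78304426 for the truncated form (612 codons) and chr7:78260379-78260414 for the full-length form (825 codons), and those of Ret at chr6:118155259-118155286 for the short tail (1073 codons) and chr6:118153974-118154009 for the long tail (1115 codons), all on the minus strand.
Ntrk3 truncated: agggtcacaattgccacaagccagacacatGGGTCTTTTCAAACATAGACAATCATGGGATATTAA
Ntrk3 full-length: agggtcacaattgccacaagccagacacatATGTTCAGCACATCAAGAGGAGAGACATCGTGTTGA
Ret short tail: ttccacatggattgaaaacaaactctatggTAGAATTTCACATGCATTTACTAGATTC
Ret long tail: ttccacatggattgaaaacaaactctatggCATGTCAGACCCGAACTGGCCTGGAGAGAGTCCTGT

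After crush, the GDNF and artemin co-receptors rose in ribosome-bound and in total RNA, and the neurturin co-receptor fell. Gfra1 rose 2.69-fold and Gfra3 1.82-fold in IP, Ret rose 1.19-fold, and Gfra2 fell to 0.695 and Ntrk3 to 0.850 of the naive level. Ntrk2 and Ngfr did not pass the threshold in the main fit, which did not pair libraries by replicate number. Tested in edgeR by quasi-likelihood, with p-values adjusted after Benjamini and Hochberg over all genes (threshold 0.05), 5 of the 7 receptors were called in IP, 3 higher and 2 lower, where 18.7% of all genes tested were called (11.5% higher, 7.12% lower). In input the same counts held, 5 of 7 with 3 higher and 2 lower, against 16% of all genes (7.79% higher, 8.26% lower). The calls rest on 3 libraries against 3 with a spread estimated over all 12. The titles number the replicates but do not name the animal, so the p-values measure the spread between libraries, which may be technical. Libraries with the same number deviated together between injured and naive ganglia within a fraction, a pairing that the main fit leaves out. The count in IP fell from 5 to 3 when any 1 IP library was left out, through Ntrk3 and Ret. With the replicate number as a block within each fraction, 7 of 7 were called in both fractions, among 6586 genes in IP and 6237 in input against 2939 and 2526 without it.

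**Figure D1:**
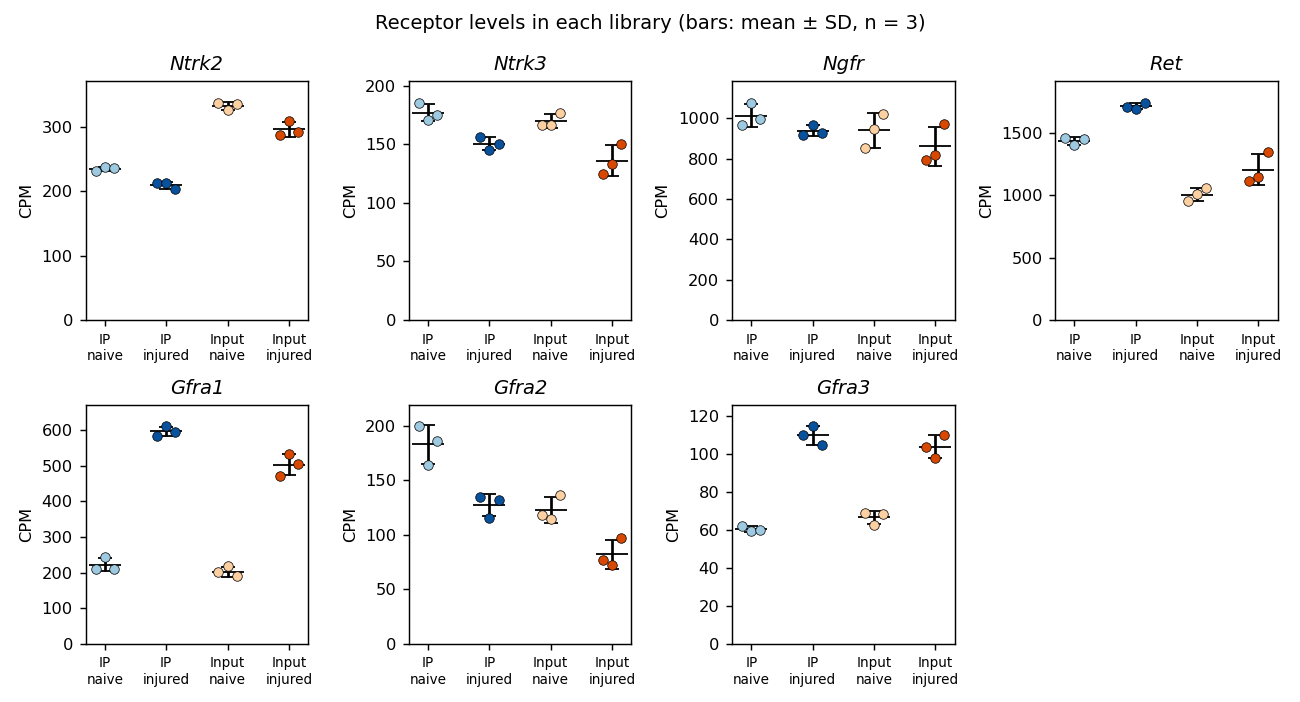
Level of each receptor in CPM (y axis, linear from 0) in the 4 groups (x axis), with 1 point per library and bars for the mean ± SD of 3 libraries. The injured libraries lie above the naive ones for Gfra1, Gfra3 and Ret and below them for Gfra2 and Ntrk3 in both fractions, while those of Ngfr overlap.

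Gfra1, the co-receptor of GDNF (chr19:58235604-58455909, minus strand), changed most among the receptors. In naive IP it stood at 210.9, 242.9 and 211.2 CPM and in injured IP at 584.4, 610.7 and 595.5 CPM; in naive input at 200.6, 217.2 and 189.2 CPM and in injured input at 472.2, 531.9 and 504.2 CPM. Every injured library lay above every naive one by far more than the replicates of a group differed. The rise was 1.43 log2 in IP (SE 0.0789, 95% interval 1.26 to 1.60, adjusted p = 1.14e-07) and 1.31 log2 in input (SE 0.0787, 1.14 to 1.48, adjusted p = 4.21e-07). By size of change it ranked 560 among the 15748 genes in IP and 343 in input. Over all alternatives the rise kept between 1.38 and 1.50 log2 in IP and between 1.27 and 1.37 log2 in input. An annotated antisense gene, Gm16277, overlaps Gfra1, and the sources used here do not say whether counting took the strand into account; Ntrk2 and Ntrk3 also overlap annotated antisense genes.

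Gfra3, the co-receptor of artemin, had the lowest CPM of the 7 in naive ganglia and rose next most. Its naive IP values were 62.0, 59.4 and 59.8 CPM and its injured IP values 109.9, 114.4 and 104.8 CPM. The groups did not overlap, and they did not in input either, where 68.9, 62.5 and 68.1 CPM stood against 103.8, 97.7 and 109.8 CPM. The rise was 0.86 log2 in IP (SE 0.0707, adjusted p = 2.59e-06) and 0.64 log2 in input (SE 0.0705, adjusted p = 5.35e-05).

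Gfra2, the co-receptor of neurturin (chr14:70890120-70979838, plus strand), moved the other way. It fell from 199.3, 163.6 and 186.1 CPM to 134.2, 115.7 and 131.6 CPM in IP, and from 117.8, 114.0 and 136.2 CPM to 77.0, 72.3 and 97.2 CPM in input, with no overlap of injured and naive libraries in either fraction. The change was -0.52 log2 in IP (SE 0.117, adjusted p = 0.00679) and -0.58 log2 in input (SE 0.118, adjusted p = 0.00466). In bulk samples, fewer cells of a type and less RNA per cell cannot be told apart.

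Ret, the signalling kinase of the 3 co-receptors (chr6:118151745-118197718, minus strand), rose by less than Gfra1 and Gfra3. In IP it went from 1458, 1404 and 1451 CPM to 1713, 1692 and 1744 CPM. In input it went from 951.5, 1010 and 1056 CPM to 1118, 1150 and 1350 CPM, so that the groups were separate in both fractions. The rise was 0.26 log2 in IP (SE 0.0749, adjusted p = 0.0304) and 0.26 log2 in input (SE 0.0749, adjusted p = 0.0313). The call in IP was lost without any 1 of the IP libraries (adjusted p = 0.0712 to 0.0989), with no low count filter (0.0565) and without both naive libraries numbered 2 (0.11). The call in input was lost without input naive 1 (0.138), input naive 2 (0.0788) or input injured 3 (0.0618), with only the 6 input libraries in the fit (0.107) and without both naive libraries numbered 2 (0.0998), while the size of the rise kept between 0.17 and 0.38 log2.

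Ntrk3, which encodes TrkC (chr7:78175959-78738012, minus strand), fell slightly. Its naive IP values were 185.3, 170.6 and 175.1 CPM and its injured IP values 156.4, 144.7 and 150.2 CPM. Its input values were 166.5, 166.2 and 176.9 CPM in naive and 124.5, 133.3 and 150.1 CPM in injured ganglia, and the groups overlapped in neither fraction. The change was -0.23 log2 in IP (SE 0.0755, adjusted p = 0.0468), a call lost without any 1 of the IP libraries (adjusted p = 0.0594 to 0.167) and without both naive libraries numbered 2 (0.0762). In input it was -0.32 log2 (SE 0.0757, adjusted p = 0.0115), and the call did not hold without input naive 3 (0.0997) and with only the 6 input libraries in the fit (0.0869).

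Ntrk2, which encodes TrkB (chr13:58806569-59133970, plus strand), stayed just outside the threshold. In IP it stood at 230.6, 237.3 and 235.2 CPM in naive and 212.4, 211.7 and 203.1 CPM in injured ganglia, and in input at 336.8, 325.0 and 334.4 CPM and 286.4, 308.6 and 291.9 CPM. Injured libraries lay below naive ones without overlap in both fractions. The difference was -0.16 log2 in IP (SE 0.0571, adjusted p = 0.0624) and -0.17 log2 in input (SE 0.0570, adjusted p = 0.0657). With the replicate number as a block within each fraction the same difference was called, with an adjusted p = 0.00252 in IP and 0.00224 in input. In IP it was also called with DESeq2 size factors in edgeR (0.0412), library size alone (0.0371), the DESeq2 Wald test (0.01), no low count filter (0.0301) and only the 6 IP libraries (0.0157), and in input without input injured 2 (0.0475). Without the input libraries numbered 3 the difference in input shrank to -0.05 log2 (adjusted p = 0.61).

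Ngfr, the receptor shared by all neurotrophins (chr11:95568818-95587735, minus strand), overlapped between injured and naive libraries. In IP its values were 966.1, 1077 and 997.6 CPM in naive and 919.3, 967.8 and 926.4 CPM in injured ganglia. In input they were 850.8, 944.2 and 1023 CPM in naive and 793.2, 816.6 and 970.7 CPM in injured ganglia, with the library numbered 3 highest in each group. The differences of -0.11 log2 (SE 0.0890, 95% interval -0.30 to 0.08, adjusted p = 0.446) and -0.13 log2 (SE 0.0890, -0.32 to 0.07, adjusted p = 0.401) were not called. With the replicate block within fraction they were, at -0.11 log2 (adjusted p = 0.0315) in IP and -0.13 log2 (0.0135) in input. Without input naive 3 alone, the difference in input turned to 0.02 log2 (adjusted p = 0.907).

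Whether injury changed the ribosome-bound and the total RNA of a receptor differently was tested as the change in IP minus that in input. By the edgeR quasi-likelihood test 0 of the 7 receptors were called, as were 10 of the 15748 genes (0.0635%), and 1 receptor had an unadjusted p under 0.05. DESeq2 and limma-voom also called 0 of the 7, and so did the fit with the replicate block within fraction, which called 282 genes. The receptor with the unadjusted p was Gfra3, whose rise was larger in IP by 0.22 log2 (SE 0.0993, 95% interval 0.00 to 0.43, adjusted p = 1). For Gfra1 the difference was 0.12 log2 (-0.12 to 0.35) and for Ret -0.01 log2 (-0.24 to 0.22), which leaves room for differences of such sizes in either direction.

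**Figure D2:**
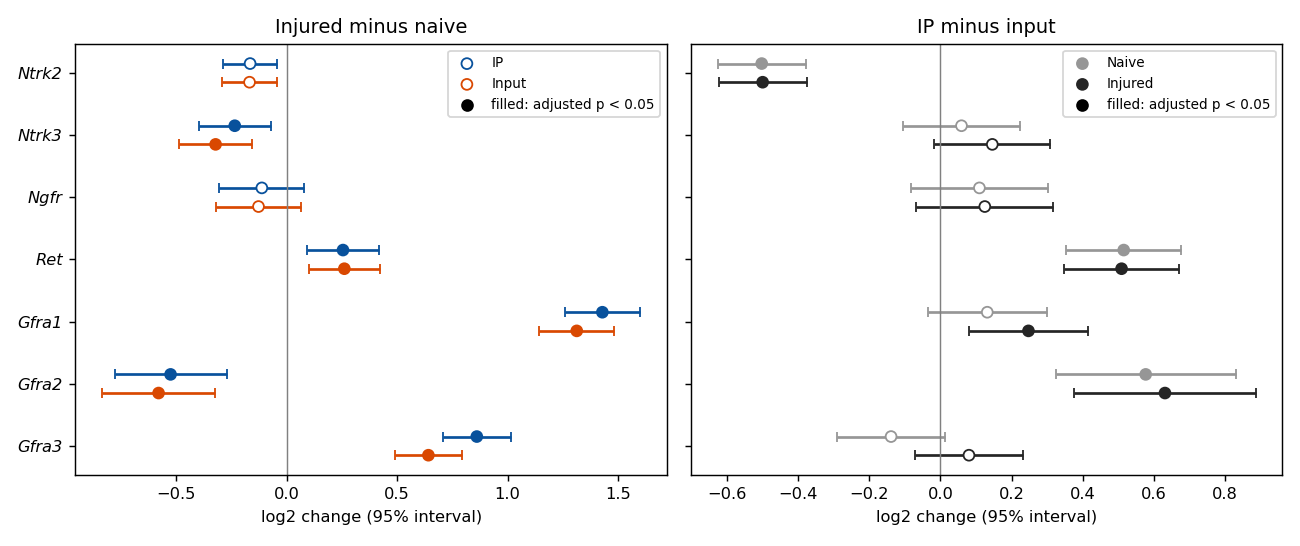
Log2 change of each receptor (points) with its 95% interval (bars), injured minus naive on the left for IP and input, and IP minus input on the right for naive and injured ganglia; filled points have an adjusted p under 0.05. On the left Gfra1, Gfra3 and Ret lie above 0 and Gfra2 and Ntrk3 below it in both fractions, and on the right Ret and Gfra2 lie above 0 and Ntrk2 below it in both states.

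The receptors also differed in how far their RNA was enriched with neuronal ribosomes. In naive ganglia Ret and Gfra2 were higher in IP than in input and Ntrk2 was lower, 3 of 7 called where 41.1% of all genes were (15.1% higher, 26% lower). That count is near the share over all genes, so the values describe single receptors and not the 7 as a set. Ret was higher by 0.52 log2 (SE 0.0751, adjusted p = 0.00013) and Gfra2 by 0.58 log2 (SE 0.117, adjusted p = 0.00159), while Ntrk2 was lower, at -0.50 log2 (SE 0.0571, adjusted p = 1.78e-05). The IP and input libraries of each of these genes did not overlap, nor did those of Gfra3, which was not called. Ntrk3 at 0.06 log2 (adjusted p = 0.566), Ngfr at 0.11 log2 (0.354), Gfra1 at 0.13 log2 (0.199) and Gfra3 at -0.14 log2 (0.137) were not called. Without both input libraries numbered 3, 5 of 7 were called, with Ntrk3 at 0.17 log2 (0.0338) and Ngfr at 0.25 log2 (0.00298) added, the latter also without input naive 3 alone (0.0288); in that fit without both, 4473 genes were called higher and 3895 lower of 15833. Gfra1 was called by DESeq2 (0.0494), and Gfra3 with library size alone as scaling, at -0.23 log2 (0.0167).

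In injured ganglia 4 of 7 were called, against 45.9% of all genes (21.4% higher, 24.6% lower), again a count not far from that share. Ret at 0.51 log2 (adjusted p = 0.000136), Gfra2 at 0.63 log2 (0.000771) and Ntrk2 at -0.50 log2 (2.01e-05) repeated their naive values closely. Gfra1 was higher in IP by 0.25 log2 (SE 0.0773, adjusted p = 0.0189), a call lost with library size alone as scaling (0.333), with only the 6 injured libraries (0.0557), without IP injured 2 (0.0589) and without input injured 1 (0.075). Without input injured 3 alone, 6 of 7 were called, with Ntrk3 at 0.22 log2 (0.0149) and Ngfr at 0.22 log2 (0.0324) added, among 3643 genes higher and 3731 lower of 15898. Without both input libraries numbered 3 they stood at 0.17 log2 (0.0322) and 0.17 log2 (0.0299). With library size alone the values of Ntrk3, Ngfr and Gfra3 turned slightly negative, and that scaling moved the median of all genes by -0.147 log2.

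The deposited table of short intervals near the 3′ ends of transcripts separates the ends of the truncated and the full-length Ntrk2 form, whose split is shown above. It holds 205977 intervals, 21 of them labelled with the receptors, among them 4 in exons of the truncated and 4 in exons of the full-length form. The 4 at the truncated end lie before the later exon of the full-length form, in what is an intron of that form. Unspliced RNA of the full-length form would be counted there too, and its part was not tested. Counts at the truncated end were 16, 27 and 34 in naive IP and 30, 36 and 32 in injured IP, but 107, 179 and 125 in naive input and 143, 114 and 109 in injured input. Counts at the full-length end were 299, 315 and 298 in naive IP, 360, 283 and 342 in injured IP, 260, 273 and 239 in naive input and 231, 229 and 164 in injured input. The truncated end was thus lower in every IP library than in every input library. Input gene totals were smaller, but totals over all intervals were larger in input, at 6186827 to 10585319 against 2876172 to 4093999 in IP. Over the intervals labelled with a 3′ end, totals were 1609489 to 1997988 in input and 1728434 to 2206323 in IP.

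As a share of both ends, the truncated end held 7.74% ± 2.58 (SD, n = 3) in naive IP, 9.18% ± 1.88 in injured IP, 34.4% ± 5.22 in naive input and 37.1% ± 3.48 in injured input. The difference of IP minus input was -27.3 percentage points, with 8.46% and 35.7% over 6 libraries each; these are 3 linked sets of injured and naive libraries, so no p is given over the 6. Within each state, 3 against 3 libraries gave a two-sided p = 0.1 by the exact permutation test, the smallest possible. Tested apart across all 12213 ends of the interval table, the truncated end was lower in IP, at -2.40 log2 in naive (SE 0.235, adjusted p = 1.28e-07) and -2.23 log2 in injured ganglia (SE 0.229, adjusted p = 3.01e-07), where 14.6% and 13.7% of all ends were called. The full-length end was not called, at 0.24 log2 (adjusted p = 0.28) and 0.33 log2 (0.127). This split by end was chosen after the values had been seen.

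Truncated TrkB, a form without the kinase, is known to be made by glia and other non-neuronal cells. Of the satellite glia and of the myelinating Schwann cell markers, 7 of 7 were lower in IP in each state, with medians of -2.66 and -3.11 log2 in naive and -2.60 and -3.08 log2 in injured ganglia, and none of them was at 0 in all libraries of a group. Also lower in IP in each state were 8 of 8 macrophage, 6 of 6 endothelium, and 7 of 7 fibroblast and perineurium markers. The medians of these lists were -2.71, -2.18 and -3.05 log2 in naive and -2.51, -1.96 and -2.97 log2 in injured ganglia. Of 7 injury-responsive glia markers 6 were lower in each state, with 0 higher in naive and 1 higher in injured ganglia. Over all genes 26% were lower in naive and 24.6% in injured ganglia. The part of any of these cells in the low share of the truncated end in IP was not tested. Injury changed the share by less than the replicates varied, by 1.44 points in IP (exact permutation p = 0.5) and 2.77 points in input (exact permutation p = 0.6), in a design whose smallest p is 0.1.

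**Figure D3:**
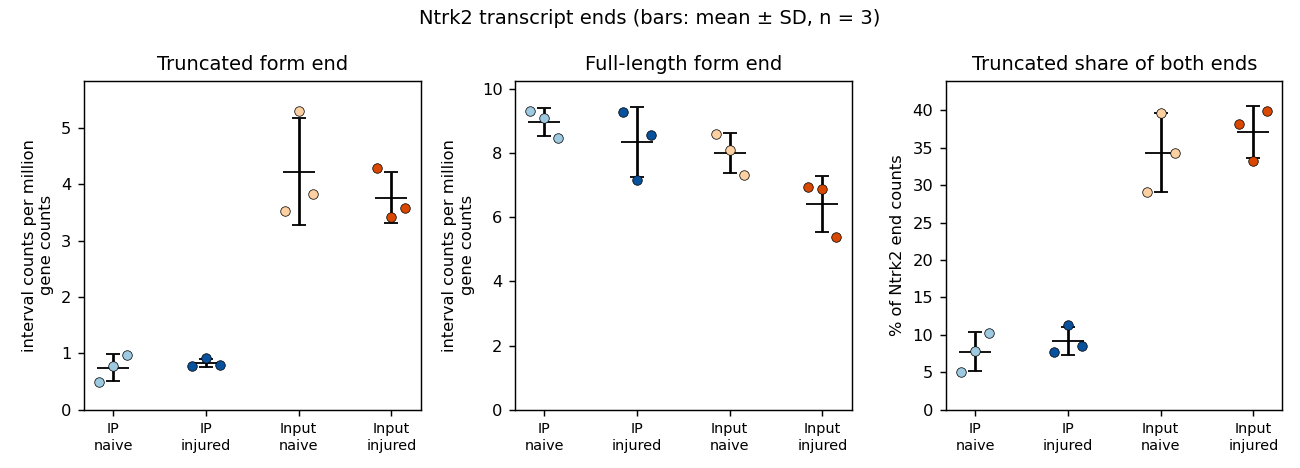
Interval counts, scaled as CPM by the gene count total, at the truncated end (left) and the full-length end (middle) of Ntrk2, and the truncated share of both in percent (right), with 1 point per library and bars for mean ± SD of 3 libraries. The truncated share lies between 5.08% and 11.3% in the IP libraries and between 29.2% and 39.9% in the input libraries.

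The ends of the other kinases rested on fewer counts and were not tested against each other. The interval at the end of the truncated Ntrk3 form held 0 to 6 counts in every library, against 137 to 304 at the full-length end. In Ret, the end of the short-tail form held 303 to 678 counts and that of the long-tail form 12 to 64. In naive ganglia the long-tail end held 5.45%, 9.51% and 7.82% of both in IP and 12.2%, 15.8% and 15.7% in input, with no overlap. In injured ganglia it held 5.70%, 5.44% and 4.47% in IP and 15.2%, 4.34% and 2.95% in input, so that only input 1 lay above the IP libraries. The interval of the truncated Ntrk3 form lies in an intron of the full-length form, and that of the short-tail Ret form in an intron of the long-tail form. Unspliced RNA of the longer forms would be counted there too, and its part was not tested.

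Summed over all intervals of a gene, the same libraries gave a readout at the 3′ ends with far fewer counts, 96 to 1661 per receptor and library. After crush Gfra1 rose by 1.50 log2 in IP (SE 0.123, adjusted p = 1.13e-08) and 1.42 log2 in input (SE 0.124, adjusted p = 3.55e-08). Gfra3 was higher by 0.63 log2 (adjusted p = 0.0192) and 0.62 log2 (0.027), and Gfra2 lower by -0.59 log2 (0.0253) and -0.69 log2 (0.0134). In IP 3 of 7 were called and in input 4 of 7, with Ntrk3 at -0.53 log2 (0.0461), against 4.39% and 3.86% of the 10832 genes tested. In the same edgeR test this Ntrk3 call was lost without any 1 input library (adjusted p = 0.0594 to 0.188) other than input injured 1 (0.0231). The calls of Gfra3 and Gfra2 in IP were lost when single libraries were left out, which left 1 to 2 calls in IP and 1 to 4 in input, and that of Gfra3 was lost in both fractions when its interval in a repeat, beyond the annotated end, was dropped (0.0931 and 0.341). For Gfra1, an interval in coding sequence near the start of the gene rose by 1.36 log2 in IP (adjusted p = 1.21e-06), beside 1.54 log2 at the 3′ end (2.1e-08), where 4.08% of all ends were called; in input these were 1.41 and 1.39 log2 (1.5e-06 and 1.79e-07), against 3.64% of all ends. Between IP and input, the interval sums of Ret at 0.51 log2 (0.0107) and Gfra2 at 0.63 log2 (0.00699) were called in naive ganglia, where 15.5% of all genes were, and that of Gfra2 at 0.73 log2 (0.00289) in injured ganglia, against 15.4%. Ntrk2, called in the gene counts, was not called in its interval sums, at -0.24 log2 (0.216) in naive and -0.17 log2 (0.418) in injured ganglia, nor was Ret in injured ganglia, at 0.38 log2 (0.0569).

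Between genes, levels can be compared only per length. Per kilobase of annotated exons, Ngfr was highest in naive IP, at 294.1 ± 16.5 CPM per kb (SD, n = 3), followed by Ret at 212.6 ± 4.38, Gfra2 at 51.7 ± 5.11, Gfra1 at 47.8 ± 3.96, Gfra3 at 30.2 ± 0.699, Ntrk2 at 14.8 ± 0.215 and Ntrk3 at 8.04 ± 0.343. Neighbours in that order did not overlap except Gfra2 and Gfra1. In injured IP the order among the co-receptors became Gfra1 at 128.6 ± 2.84, Gfra3 at 54.9 ± 2.41 and Gfra2 at 35.9 ± 2.83 CPM per kb, with no overlap. In input Gfra1 led Gfra2 in both states, with Gfra2 and Gfra3 overlapping in naive ganglia. Ntrk2 and Ntrk3 have long untranslated ends: per coding length both came above Gfra3 in naive IP, at 95.2 and 68.3 against 50.7 CPM per kb, and Gfra1 came above Gfra2, at 157.9 and 131.5.

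The make-up of the co-receptors accordingly shifted towards Gfra1. Of the summed level per exon length of the 3, Gfra1 held 36.8% ± 3.48 in naive and 58.6% ± 0.955 in injured IP, and 39.1% ± 3.23 and 59.1% ± 2.88 in input. Gfra2 held 39.8% ± 3.37 and 16.4% ± 1.41 in IP, and 31.0% ± 2.54 and 12.6% ± 1.64 in input. The share of Gfra3 moved little, from 23.3% ± 0.117 to 25.0% ± 0.896 in IP and from 29.8% ± 1.37 to 28.3% ± 1.56 in input, since its own rise was close to that of the sum. Relative to Ret, the summed co-receptor level was 0.610 ± 0.0118 in naive and 0.865 ± 0.0201 in injured IP, and 0.751 ± 0.0335 and 1.03 ± 0.0666 in input, with no overlap of injured and naive libraries in either fraction. These shares are a description and depend on the lengths used.

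**Figure D4:**
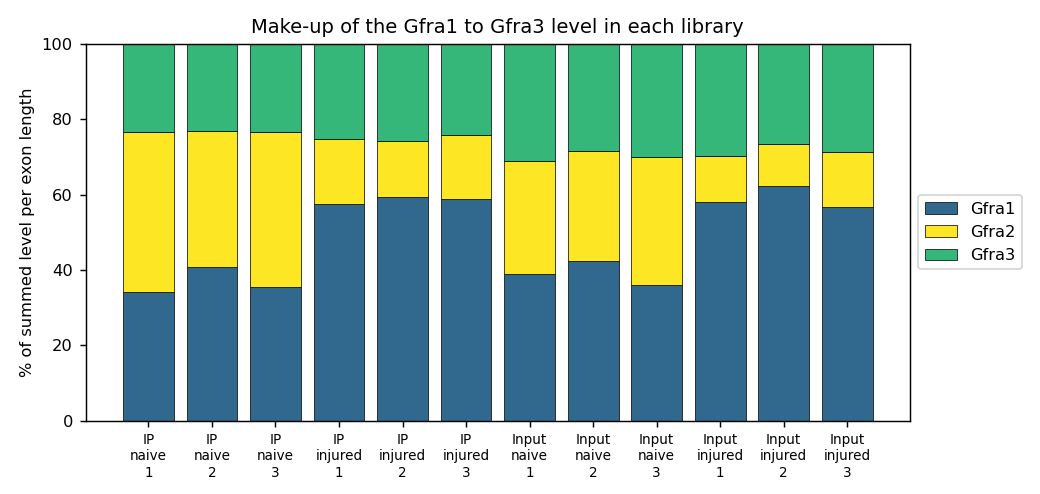
Share of Gfra1, Gfra2 and Gfra3 in their summed level per exon length (y axis, percent) in each of the 12 libraries (x axis). Gfra1 holds 34.2% to 42.4% in the naive libraries and 56.9% to 62.3% in the injured libraries.

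Ligands of these receptors were also measured. Bdnf, the ligand of TrkB, rose in IP from a mean of 41.8 to 65.2 CPM, by 0.64 log2 (SE 0.195, adjusted p = 0.0378), a call not held without the input libraries numbered 3 (0.0518); in input it went from 29.1 to 43.7 CPM, by 0.58 log2 (adjusted p = 0.0659), which was not called. Ntf3, the ligand of TrkC, fell by 1.53 log2 in IP (SE 0.335, adjusted p = 0.00619) and by 1.82 log2 in input (SE 0.342, adjusted p = 0.0028), on 22 to 34 counts per naive and 7 to 15 per injured IP library. Nrtn, which encodes neurturin, was not called, at -0.60 log2 (0.122) in IP and -0.10 log2 (0.85) in input. Gdnf had 2 to 14 counts per library, Artn 2 to 10, Ntf5 0 to 4, Gdf15 0 to 11 and Pspn 0 to 1, and these were not tested.

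Downstream of the receptors, called genes went in both directions and most genes were not called. Of 14 co-receptors and sorting receptors tested, 4 rose and 2 fell in IP and 3 rose and 3 fell in input, with medians of -0.01 and -0.03 log2 beside 0.02 and -0.02 over all genes; without the input libraries numbered 3, 3 rose and 4 fell in IP. Lrig1, a membrane inhibitor of Ret and other receptor kinases, rose by 1.11 log2 in IP (SE 0.0974, adjusted p = 4.54e-06) and 0.54 log2 in input (0.00186). Sdc3, a heparan sulfate carrier that binds GDNF, rose by 0.72 log2 in IP (9.93e-05), and Rtn4rl1, a Nogo receptor relative, fell by 0.55 and 0.62 log2 (0.000915 and 0.000559). Gfra4, the co-receptor of persephin, was called in input, at -0.51 log2 (0.0285), and not in IP, at -0.34 log2 (0.116), a difference between fractions that the interaction test did not call; without the input libraries numbered 3 it was called in IP too, at -0.37 log2 (0.00605).

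Of 29 docking and adaptor proteins, 8 rose and 3 fell in IP and 5 rose and 2 fell in input, with medians of 0.07 and 0.03 log2; without the input libraries numbered 3 the counts were 10 and 6 in IP and 8 and 1 in input. Irs2, an adaptor of insulin-type receptors, rose by 1.07 log2 (SE 0.0995, adjusted p = 7.68e-06) and 1.03 log2 (1.78e-05), and Grb10, which binds activated Ret, by 0.71 log2 in IP (9.97e-05). Shc2, a Trk adaptor, rose by 0.41 log2 in input (0.00526) and by 0.39 log2 in IP (0.00518). Of 29 kinases of the Ras-MAPK and PI3K-Akt routes 3 rose and 0 fell in each fraction, and the medians were -0.01 and -0.07 log2. The 3 were Rps6ka1, a kinase downstream of ERK, at 0.88 and 0.72 log2 (0.00051 and 0.00284), Pik3cd, a catalytic PI3K subunit, at 0.39 and 0.34 log2, and Akt1 at 0.32 and 0.28 log2. Without the input libraries numbered 3 the kinase counts were 7 and 6 in IP and 8 and 1 in input.

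Of 20 feedback inhibitors 3 rose and 3 fell in each fraction, and without the input libraries numbered 3 the counts in IP were 3 and 7. Ptpn1, a tyrosine phosphatase, rose by 1.03 and 0.93 log2 (adjusted p = 3.43e-05 and 0.000122), Socs2, a cytokine signal suppressor, by 0.68 and 0.62 log2, and Dusp1, a MAP kinase phosphatase, by 0.65 and 0.59 log2, the latter not called without the input libraries numbered 3 (0.08). Of 14 genes of endosomal traffic of receptors 1 rose and 2 fell in each fraction: Ehd4, which carries Trk receptors in endosomes, rose by 0.54 and 0.52 log2 (0.000189 and 0.000381), while Sh3gl2, an endophilin, fell by 0.42 and 0.57 log2 and Dync1i1, a dynein chain, by 0.25 and 0.36 log2. Without the input libraries numbered 3, 1 of the endosomal genes rose and 5 fell in IP, and 2 rose and 3 fell in input. Beside these counts stand 11.5% of all genes higher and 7.12% lower in IP, and 7.79% and 8.26% in input.

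**Figure D5:**
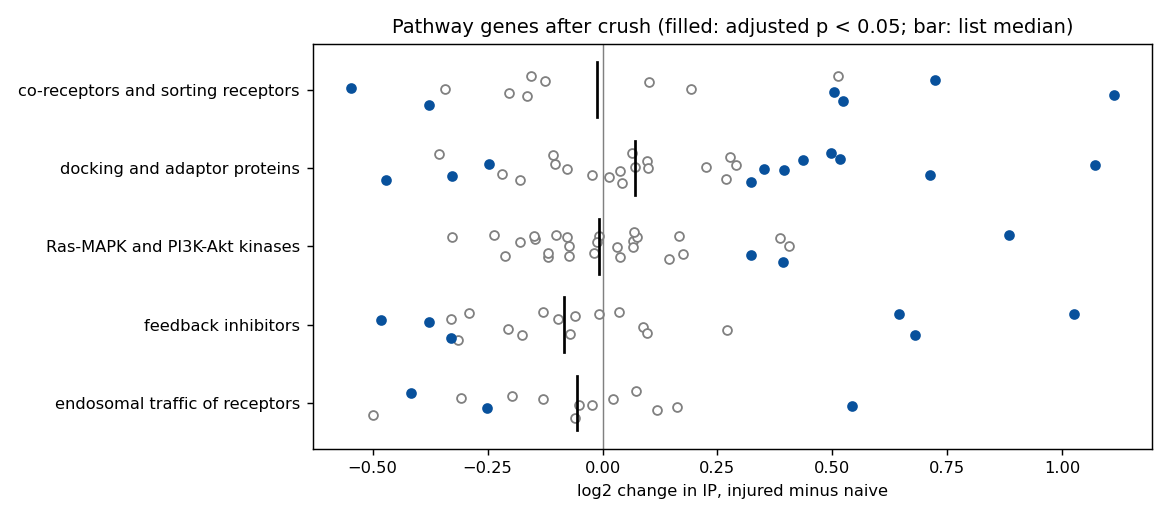
Log2 change in IP, injured minus naive (x axis), of the tested genes in 5 lists around the receptors (y axis, 1 point per gene, spread vertically for sight only); filled points have an adjusted p under 0.05 and black bars mark list medians. Called genes lie on both sides of 0 in every list except that of the kinases, where the 3 called genes are higher.

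Markers of neuron classes of the ganglion were counted likewise, in lists that do not hold the receptors themselves. Their counts after injury stand beside 11.5% of all genes higher and 7.12% lower in IP, and 7.79% and 8.26% in input. Of 15 markers of A-fibre mechanoreceptors and proprioceptors, 1 rose and 11 fell in IP and 1 rose and 12 fell in input, with medians of -0.46 and -0.55 log2; the largest falls in IP were Mafa, a transcription factor of Ret-positive mechanoreceptors, by 1.27 log2 (adjusted p = 0.000252), Etv1, a transcription factor of proprioceptors, by 0.88 log2 (0.000351), and Whrn, a scaffold of proprioceptors, by 0.75 log2 (0.000101). Of 10 markers of nonpeptidergic nociceptors 1 rose and 5 fell in IP and 0 rose and 6 fell in input, with Mrgprd, a receptor of these neurons, falling by 0.63 and 0.74 log2 (0.00169 and 0.000755). Of 7 markers of peptidergic nociceptors 1 rose and 3 fell in each fraction; Adcyap1, the neuropeptide PACAP, rose by 1.72 and 1.30 log2 (6.64e-06 and 0.000109) and Calcb, a CGRP gene, fell by 0.39 and 0.41 log2. Of 6 markers of C-fibre low-threshold mechanoreceptors 0 rose and 1 fell in IP and 0 rose and 2 fell in input, with Tafa2, a secreted protein, falling by 0.59 log2 in IP (0.0497) and 0.70 log2 in input (0.0281). In naive ganglia all 10 nonpeptidergic markers were higher in IP, with a median of 0.59 log2 beside 0.52 for Ret and 0.58 for Gfra2. The C-fibre markers had a like median of 0.59 log2, with 4 of 6 higher and 0 lower. The 10 sensory neuron markers stood at 0.36 log2, with 6 higher and 0 lower. Medians were 0.12 log2 for the A-fibre markers (4 higher, 3 lower) and -0.02 log2 for the peptidergic ones (0 higher, 1 lower). Over all genes 15.1% were higher and 26% lower. The naive fit without the input libraries numbered 3 called 8 A-fibre markers higher in IP and 3 lower, with a median of 0.22 log2. There 9 of 10 sensory neuron, 10 of 10 nonpeptidergic and 5 of 6 C-fibre markers were higher and 0 lower, with medians of 0.40, 0.61 and 0.65 log2. Of the peptidergic markers 0 were called, at 0.02 log2. Over all genes in that fit 4473 were called higher and 3895 lower of 15833. Without the input libraries numbered 3, 1 rose and 14 fell in IP among the A-fibre markers, and 1 and 8 among the nonpeptidergic ones, while of the peptidergic markers 1 rose and 4 fell in IP, and of the C-fibre markers 2 fell in IP and 1 in input.

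The genes whose log2 CPM followed each receptor most closely over the 12 libraries differed between receptors. For Gfra1 they were Gadd45a, Cckar and Stmn4, with Pearson r of 0.997 each. Gfra3 was followed by Csrnp1, Tmem43 and Gpsm1 (r = 0.991, 0.991 and 0.988), and Gfra2 by Adrbk1, Rims3 and Plcb3 (0.995, 0.994 and 0.992). Those of Ret were Tagln2, Cep170b and Tbc1d9 (0.995, 0.993 and 0.990). Ntrk2 was followed by Ttc38, Gprc5b and Slc4a4 (0.989, 0.982 and 0.982), and Ntrk3 by Atp2b2, Slc6a17 and Dclk2 (0.987, 0.982 and 0.970). Ngfr had the loosest company, with Nudt16l1, Usp10 and Pcdh1 at 0.949, 0.944 and 0.938. These correlations describe 12 libraries that fall into 4 groups, so that genes with like group differences score alike, and no p is given.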

How the data were processed

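The authors deposited raw read counts per gene symbol for 12 libraries, and a second table of raw counts over short stretches of the genome (intervals), each labelled with its strand, any repeat family and a 3′ end. Per the labels' protocols, RNA was purified with an RNeasy Mini kit and made into rRNA-depleted stranded libraries (TruSeq Stranded Total RNA Gold). Per the submitters' processing notes, the builds GRCm38 and mm10 and the tools HTSeq, STAR and bcl2fastq 2.17 were used, with no roles stated; the sources used here give neither strand settings nor the choice of intervals. From the gene counts, 27 names turned into dates (0.191% to 0.214% of counts) were left out. The main test was the robust quasi-likelihood fit in edgeR 4.0.16 (R 4.3.3), 1 fit over all 12 libraries in which each of the 4 groups had its mean, leaving 8 residual degrees of freedom, after TMM scaling, filterByExpr and Benjamini-Hochberg adjustment at 0.05; standard errors are the log2 change over the root of F. Interval counts were summed per gene or per 3′ end and tested likewise. DESeq2 1.42.0 and limma 3.58.1 were alternatives. The main fit was also run on simulated independent counts with known changes in injured IP only, without linked or outlying libraries. Lengths and sequences came from GENCODE M21.

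The members and the 17 gene lists were chosen with earlier results of these data known. Of the lists, the called genes with the largest changes were named, with the ligands other than 1 that is not reported here, and for each receptor the 3 genes with the highest correlation. Libraries with the same replicate number deviated together between injured and naive ganglia, with correlations of 0.447, 0.319 and 0.191 in IP and 0.273, 0.423 and 0.597 in input, so the titles' numbers were taken to pair them within a fraction. The main fit left this pairing out, and the fit with the replicate block within fraction, which uses it, is given as an alternative. Between IP and input the correlations were 0.0472 to 0.23. The main fit did not pair IP with input either, and a fit with the replicate block within injury state was run as an alternative. Replicates differed by 4.75 to 54.9 times the sampling noise (chi-square per degree of freedom), so none were merged. The test per 3′ end, the share of the truncated Ntrk2 end, and the fits without both input libraries numbered 3 or both naive libraries numbered 2 were chosen after seeing the data.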

Additional observations from a re-analysis of the deposited data

How the results depend on the processing

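The rises of Gfra1 and Gfra3 and the fall of Gfra2 after injury, and the IP against input calls of Ret, Gfra2 and Ntrk2, kept their direction and their call under every alternative run on the gene counts. Over all alternatives for the receptors' log2 changes, interaction included, 505 kept direction and call, 19 gained a call, 26 lost one and 38 changed sign. Leaving out any 1 IP library, or both naive libraries numbered 2, left 3 receptors called in IP after injury, and a fit of only the 6 input libraries left 3 in input. The genes called after injury numbered 6586 in IP and 6237 in input with the replicate block within fraction, which changed no receptor's call in the gene counts other than those of Ntrk2 and Ngfr, and 4736 and 1335 with only the libraries compared. In input they were 1669 without both naive libraries numbered 2 and 1524 to 2653 without single libraries, the lowest without input naive 1. Interaction calls numbered 44 with DESeq2, 18 with a replicate block shared by all groups, 282 with the block within fraction, 4 with the block within injury state and 0 to 15 without single libraries. Blocks in which a contrast lies between blocks could not be fitted and were not run. Without both input libraries numbered 3, 5 receptors were called between IP and input in naive ganglia, and called genes were 65.87% higher after injury in input (48.54% with all libraries) and 53.45% higher in naive IP (36.81%). With library size alone the higher share was 22.32% in naive and 23.89% in injured IP (46.51% with composition scaling). That scaling turned IP against input to -0.0350 log2 for Ntrk3 in naive ganglia and to -0.00089 for Ntrk3, -0.0211 for Ngfr and -0.0666 for Gfra3 in injured ganglia. Interaction values turned for Ntrk2 to -0.0498 with DESeq2 size factors, -0.0521 with library size, -0.0499 with the DESeq2 test, -0.0732 with no low count filter and -0.14 without the inputs numbered 3; for Ngfr to -0.0345, -0.0371, -0.0345, -0.0585 and -0.0844 in the same order; and for Gfra2 to -0.0186 with no filter and -0.0189 without those inputs. Without single libraries, the interaction ranged from -0.113 to 0.0347 for Ntrk2, -0.0521 to 0.16 for Ntrk3, -0.16 to 0.11 for Ngfr, -0.15 to 0.0820 for Ret and -0.13 to 0.19 for Gfra2, and the change of Ngfr in input from -0.22 to 0.0192. In the interval counts, leaving out single libraries gave 1 to 2 receptors called after injury in IP, 1 to 4 in input, and 1 to 2 between IP and input in each state; gene table scaling gave 3 and intervals with no repeat family 2 in injured ganglia. There IP against input ranged from -0.14 to 0.00834 for Ntrk3 and -0.15 to 0.0606 for Ngfr in naive and -0.15 to 0.0222 for Ngfr in injured ganglia, and for Gfra3 from -0.0537 to 0.13 and -0.0487 to 0.0991; gene table scaling turned Gfra3 in naive ganglia to -0.0419 and intervals with no repeat family to -0.0560. Per longest transcript, naive IP levels were 26.8 CPM per kb for Ntrk2, 8.98 for Ntrk3 and 263.5 for Ret; per coding length they were 95.2 for Ntrk2, 68.3 for Ntrk3, 791.1 for Ngfr, 429.8 for Ret, 157.9 for Gfra1, 131.5 for Gfra2 and 50.7 for Gfra3. The cause of these changes was not tested. Depth limits the ligands and the ends of Ntrk3 and Ret, with few counts per library.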

Other observations

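Among the genes around the receptors, several were far lower in IP than in input. Spry1, a feedback inhibitor of receptor kinases, was lower, at -1.95 log2 in naive (SE 0.266, adjusted p = 7.9e-05) and -2.01 log2 in injured ganglia (5.03e-05), Shc4, an adaptor, stood at -1.80 and -1.83 log2 (2.5e-06 and 2.56e-06), Tnfrsf19, a receptor related to Ngfr, at -1.74 and -1.79 log2 (8.32e-06 and 6.23e-06), and Dusp4, a MAP kinase phosphatase, at -1.38 and -1.42 log2. Others were higher in IP: App, the amyloid precursor, by 1.00 and 1.17 log2 (9.63e-06 and 3.92e-06), and Rab27b, a GTPase of vesicle transport, by 0.96 and 1.15 log2 (0.00833 and 0.00262). Of 14 genes of endosomal traffic 8 were higher and 0 lower in IP in each state, and of 29 kinases 9 were higher and 2 lower in naive and 14 and 2 in injured ganglia, where 15.1% of all genes were higher and 26% lower in naive and 21.4% and 24.6% in injured ganglia. Without the input libraries numbered 3, 20 of the kinases were higher and 2 lower in naive ganglia, with 13 and 4 after injury, while 11 of the endosomal genes were higher and 1 lower in naive and 10 and 1 in injured ganglia.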
